A study of Homo sapiens with 12 samples.

Results

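The genes described here act in plasminogen activation and matrix proteolysis. They are the 9 members of a list given by symbol, namely PLAUR, PLAU, PLAT, SERPINB2, MMP2, MMP9, TIMP1, TIMP2 and TIMP3, out of 58381 genes in the tables. All 9 were found, and 7 of them passed the filter on low counts and were among the 15944 genes tested. SERPINB2 and MMP9 did not pass and are given by their counts.

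Polyadenylated RNA was sequenced from 12 cultures of HMC-1, a human mast cell line derived from a patient with mast cell leukemia. HMC-1.1 cells carry the V560G variant of the receptor tyrosine kinase KIT, and HMC-1.2 cells carry V560G together with D816V. In HMC-1.3 the V560G change of HMC-1.2 was reverted by CRISPR/Cas9 editing, so that its cells carry D816V alone, and clone 1 and clone 2 are separate single clones of it. Each of these 4 groups had 3 libraries, made from cultures plated side by side and collected after the same time. All groups descend from HMC-1, D816V is shared by HMC-1.2 and both clones, and V560G is shared by HMC-1.1 and HMC-1.2. Each clone stands for 1 edited cell, so that editing and clone cannot be told apart, and the p-values given below measure the spread between cultures of a subline only.

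Plasminogen is a circulating zymogen that the serine proteases urokinase (PLAU) and tissue plasminogen activator (PLAT) cleave to plasmin, which degrades fibrin and can activate pro-metalloproteinases. The urokinase receptor (PLAUR, also called CD87) holds urokinase at the cell surface, and serpins such as PAI-2 (SERPINB2) inactivate the activators. Gelatinases of the matrix metalloproteinase family (MMP2, MMP9) digest denatured collagen and basement membrane, and the tissue inhibitors of metalloproteinases (TIMP1, TIMP2, TIMP3) block them. Mast cells are known as a source of tissue plasminogen activator and of gelatinases, and CD87 has been described on neoplastic mast cells.

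Totals were 29225900 to 43181402 expected counts per library. They ran from 29225900 to 36794166 in HMC-1.2 and from 34656242 to 43181402 in clone 2, and counts given below are not scaled to these totals. The mast cell list, with 9 of its 10 genes tested, summed to between 4051 and 4731 CPM, a count scaled to library size, in each library. KIT (1644 to 2116 CPM) and HDC (1483 to 1864 CPM) made up most of that sum, and single markers differed between sublines. Other genes of the list were low in every library, namely MS4A2 (0.088 to 0.759 CPM), FCER1A (0.11 to 1.19 CPM) and CMA1 (at most 0.103 CPM). HPGDS had 3.65 to 4.30 CPM in clone 2 against 7.92 to 13.9 CPM elsewhere. The tryptase genes TPSAB1 and TPSB2, near-identical copies whose reads may be split between them, had 552 to 591 and 91.0 to 97.0 CPM in HMC-1.2 against 25.1 to 41.1 and 31.2 to 39.7 CPM elsewhere, and CPA3 had 4.89 to 5.07 CPM there against 10.7 to 17.6 CPM elsewhere. Fibroblast markers summed to 1.75 to 3.61 CPM, markers of monocytes or macrophages to 2.15 to 3.37 CPM and endothelial markers to 0.103 to 0.539 CPM. One library stood apart. In replicate 3 of clone 2, 61 genes with at least 20 counts were more than 5-fold above both other libraries of the clone, against 0 to 7 such genes in each of the other 11 libraries. Keratin genes of simple epithelia were among them, since KRT8 had 458.98 expected counts there and 2 to 13 elsewhere, KRT18 had 429 against 0 to 4, and KRT7 had 57 against 0 or 1. The matrix protein gene SPARC had 318 counts in that library and at most 4 elsewhere, and EGFR had 59 against at most 1. These genes were chosen after their values had been seen. Their part in the results for clone 2 was not tested. Calls of members that changed without this library are given, and the counts of genes called rest on all libraries unless stated.

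Promoter sequences are shown for PLAUR and PLAU and for TIMP1 and TIMP3, pairs of members whose levels moved together. PLAUR and PLAU were both lower in all 3 other sublines than in HMC-1.2, and TIMP1 and TIMP3 were both higher in clone 2 than in the other sublines. PLAT was also highest in clone 2, and its promoter is not shown. Each sequence runs 5′ to 3′ from 250 bases before to 50 bases after the start that RefSeq gives on GRCh38.p14, and capitals mark matches to the motifs named below. The PLAUR sequence is chr19:43670120-43670419 on the minus strand, PLAU is chr10:73910360-73910659, TIMP1 is chrX:47582186-47582485 and TIMP3 is chr22:32801455-32801754, these 3 on the plus strand.
PLAUR: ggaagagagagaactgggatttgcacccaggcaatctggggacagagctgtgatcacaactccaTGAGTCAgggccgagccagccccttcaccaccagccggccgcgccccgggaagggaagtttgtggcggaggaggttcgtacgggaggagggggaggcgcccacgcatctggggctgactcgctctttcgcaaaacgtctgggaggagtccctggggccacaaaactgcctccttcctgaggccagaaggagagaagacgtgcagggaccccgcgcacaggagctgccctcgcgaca
PLAU: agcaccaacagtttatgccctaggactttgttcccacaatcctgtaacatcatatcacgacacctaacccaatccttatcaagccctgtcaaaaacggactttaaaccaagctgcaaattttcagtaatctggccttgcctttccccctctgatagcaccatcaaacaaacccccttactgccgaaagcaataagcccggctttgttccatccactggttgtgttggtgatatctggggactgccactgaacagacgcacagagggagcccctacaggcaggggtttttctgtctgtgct
TIMP1: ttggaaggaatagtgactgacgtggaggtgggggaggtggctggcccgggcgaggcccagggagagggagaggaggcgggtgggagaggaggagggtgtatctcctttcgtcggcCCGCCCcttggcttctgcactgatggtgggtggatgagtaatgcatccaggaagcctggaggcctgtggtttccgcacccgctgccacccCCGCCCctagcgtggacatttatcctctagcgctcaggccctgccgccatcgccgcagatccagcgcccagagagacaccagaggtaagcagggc
TIMP3: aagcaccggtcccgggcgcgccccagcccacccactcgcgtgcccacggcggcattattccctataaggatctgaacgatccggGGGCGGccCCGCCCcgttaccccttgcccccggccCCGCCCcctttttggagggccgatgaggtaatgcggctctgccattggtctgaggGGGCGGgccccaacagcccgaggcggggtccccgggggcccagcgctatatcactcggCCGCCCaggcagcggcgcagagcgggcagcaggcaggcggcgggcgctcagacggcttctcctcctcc

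Motifs of 5 factor families were searched on both strands. The AP-1 motif was TGANTCA and the STAT motif was TTCNNNGAA. The GATA motif was AGATAA, while the Sp1 motif was GGGCGG, and the NF-kappaB motif is given by name. PLAUR held 1 AP-1 match, TGAGTCA at -186 from the start, and no other match. PLAU held no match to any of the 5 motifs in this window. The PLAU window, from chr10:73910360, lies inside the gene as Gencode places it, which starts at 73909177. The PLAUR window also lies inside its gene, whose Gencode 5′ end is chr19:43670547. Sequence before these Gencode starts of PLAU and PLAUR was not searched. TIMP1 held 2 Sp1 matches, at -135 and -45, and TIMP3 held 5, at -166, -158, -131, -76 and -18. No match overlapped another. Of 35116 RefSeq promoters of this length, 7.71% held the AP-1 motif, 7.66% the STAT motif, 1.40% the NF-kappaB motif, 10.3% the GATA motif and 45.0% the Sp1 motif. Among the 10067 promoters of genes tested here these shares were 4.37%, 6.28%, 1.46%, 5.14% and 69.8%. The GC content was 64.0% in PLAUR, 48.7% in PLAU, 65.0% in TIMP1 and 72.7% in TIMP3. A match describes letters in this window and is not evidence of binding.

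The members tested fell into 3 patterns of level, with TIMP2 low throughout. PLAUR and PLAU were highest in HMC-1.2 and were lower in every other subline, PLAU by far more than PLAUR. PLAT, TIMP1 and TIMP3 were highest in clone 2. MMP2 was high in HMC-1.1 and clone 1 and low in HMC-1.2 and clone 2. A gene was called different where the quasi-likelihood test of edgeR, adjusted by the Benjamini-Hochberg method over all genes, gave a p under 0.05 at a fold over 1.5. In bulk RNA a lower level can reflect fewer cells with the transcript or less transcript per cell, and these cannot be told apart.

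**Figure D1:**
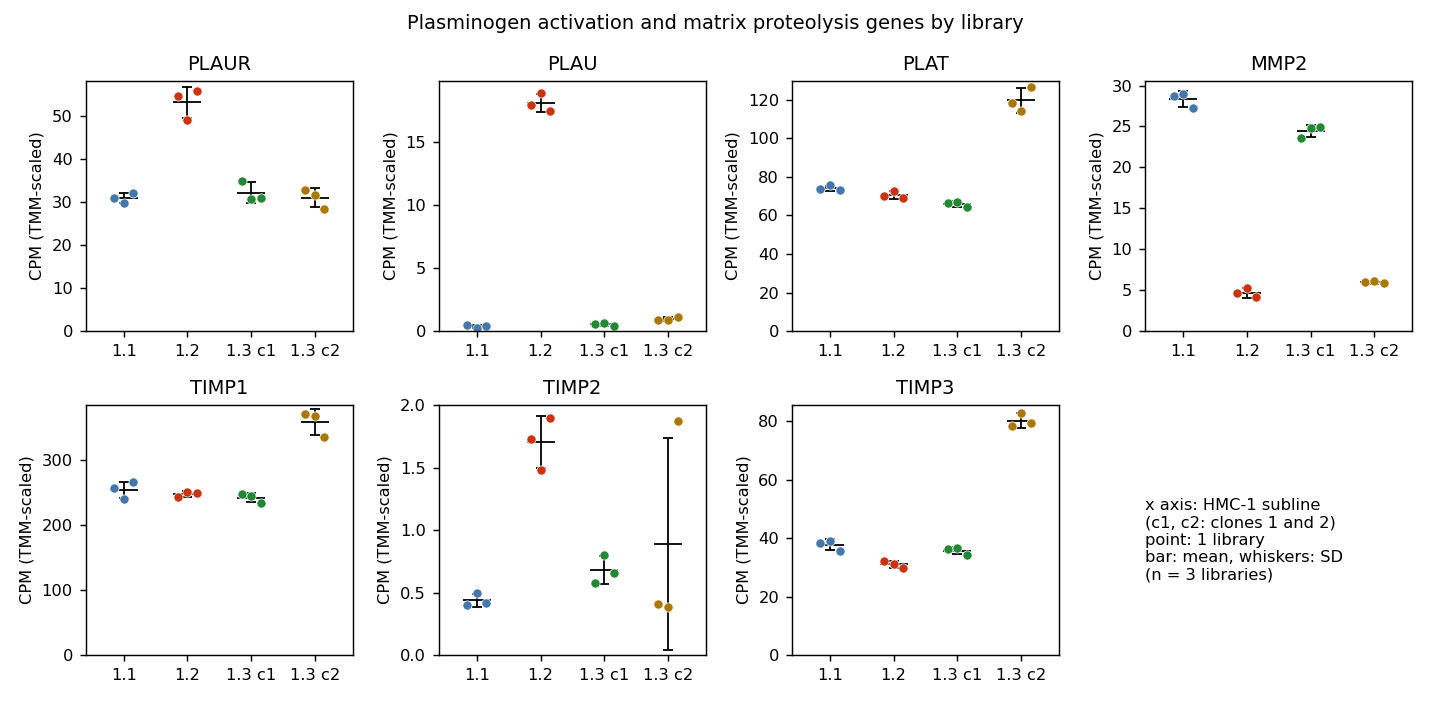
Each panel plots 1 tested gene, with the 4 HMC-1 sublines on the x axis (c1 and c2 are clones 1 and 2 of HMC-1.3) and CPM, scaled by TMM library factors, on the y axis. Points are libraries, bars are means and whiskers are SD (n = 3). PLAU lies between 17.5 and 18.9 CPM in HMC-1.2 and at or under 1.13 CPM elsewhere, and the third TIMP2 point of clone 2 lies at 1.87 CPM, away from the other two of that clone.

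Against HMC-1.2, 4 of the 7 members tested were called in clone 1, where MMP2 was higher and PLAUR, PLAU and TIMP2 were lower, and 20.0% of all genes tested were called in that comparison. The median log2 fold change was -0.10 over the 7 members and 0.01 over all genes. In clone 2, 4 of 7 were called, with PLAT and TIMP3 higher and PLAUR and PLAU lower, beside 16.5% of all genes, and the medians were 0.35 and 0. HMC-1.1 had 4 of 7 called, with MMP2 higher and PLAUR, PLAU and TIMP2 lower, beside 17.6% of all genes, and the medians were 0.04 and 0.01. These 3 comparisons share the HMC-1.2 libraries, so their values stand side by side and are not independent of each other.

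Between the other sublines, none of the 7 members was called in clone 1 against HMC-1.1, where 1.01% of all genes were called. By the same edgeR test, 2 members (PLAT and MMP2) had an adjusted p under 0.05 in that comparison at folds under 1.5. Clone 2 against HMC-1.1 had 4 of 7 called, with PLAU, PLAT and TIMP3 higher and MMP2 lower, beside 8.19% of all genes. The direct comparison of clone 1 with clone 2 also had 4 of 7 called, with MMP2 higher and PLAU, PLAT and TIMP3 lower in clone 1, beside 12.6% of all genes.

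**Figure D2:**
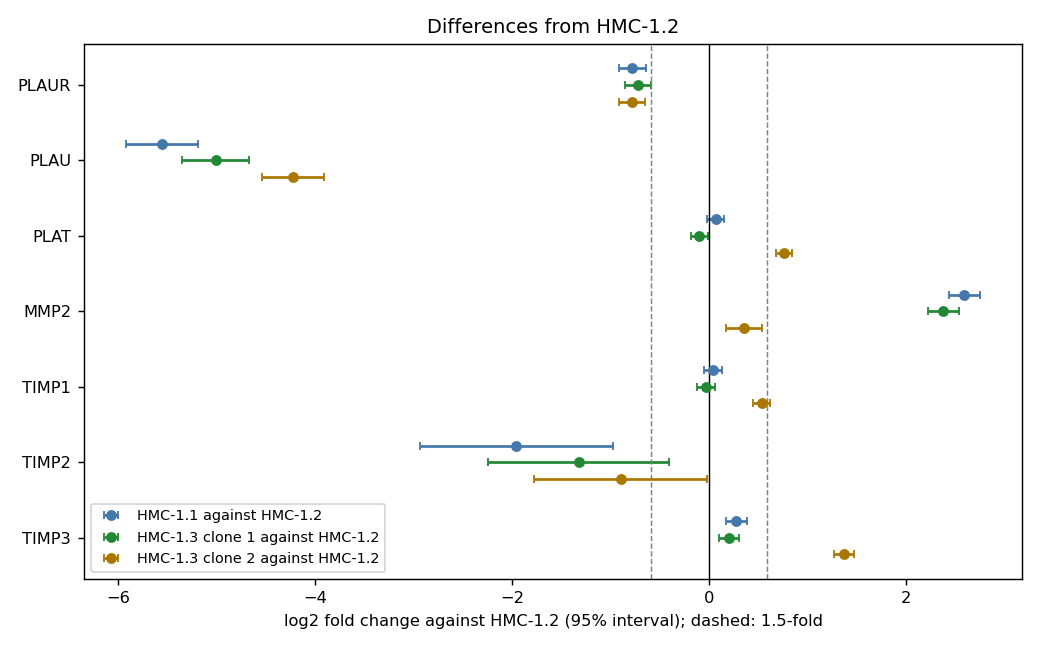
Log2 fold changes of the 7 tested members against HMC-1.2 are plotted on the x axis with 95% intervals from the edgeR fit, and 1 color per subline. Dashed lines mark 1.5-fold. PLAU lies between -5.55 and -4.22 in all 3 comparisons, whereas MMP2 lies at 2.59 for HMC-1.1, at 2.38 for clone 1 and at 0.35 for clone 2.

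PLAUR encodes the GPI-anchored receptor of urokinase and lies at chr19:43646095-43670547 on the minus strand (GRCh38). In HMC-1.2 its 3 libraries had 45.5, 40.9 and 46.6 FPKM, a level scaled by transcript length and library size. The levels were 27.7, 26.2 and 28.4 FPKM in HMC-1.1, 30.6, 27.3 and 27.8 in clone 1, and 28.0, 27.5 and 25.4 in clone 2. Every HMC-1.2 library was above every library of the other sublines, and the ranges of those 3 overlapped. The receptor transcript was 1.65-fold lower in clone 1 than in HMC-1.2 (log2 fold change -0.72, SE 0.0631), 1.72-fold lower in clone 2 (-0.78, SE 0.063) and 1.72-fold lower in HMC-1.1 (-0.78, SE 0.0632). The edgeR adjusted p-values were 3.3e-08, 1.55e-08 and 1.65e-08. Among HMC-1.1, clone 1 and clone 2, PLAUR differed by at most 0.06 on the log2 scale, with 95% intervals that lay within -0.14 and 0.20.

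PLAU, the urokinase gene, lies at chr10:73909177-73917496 on the plus strand. It had 643, 573 and 507 expected counts in the HMC-1.2 libraries, which corresponds to 15.5, 14.3 and 14.3 FPKM. In HMC-1.1 it had 19, 9 and 15 counts, in clone 1 it had 22, 24 and 15, and in clone 2 it had 30, 34 and 49. Urokinase RNA was thus abundant only in HMC-1.2 among these sublines, and no library of another subline overlapped the HMC-1.2 range. Relative to HMC-1.2 the fold lower was 46.9 in HMC-1.1 (log2 fold change -5.55, SE 0.171), 32.2 in clone 1 (-5.01, SE 0.162) and 18.7 in clone 2 (-4.22, SE 0.147). The adjusted p-values by the same edgeR test were 3.71e-14, 6.66e-14 and 1.88e-13. By the size of its log2 fold change, PLAU was number 62 of the 7759 tested genes with a negative value in clone 1, number 96 of 7974 in clone 2 and number 48 of 7815 in HMC-1.1.

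At its low level PLAU also differed between the remaining sublines. Clone 2 was 2.52-fold above HMC-1.1 (log2 fold change 1.33, SE 0.234, edgeR adjusted p = 0.000275) and clone 1 was 1.72-fold below clone 2 (-0.79, SE 0.218, edgeR adjusted p = 0.00649). Without replicate 3 of clone 2 these values were 1.19 (adjusted p = 0.00218) and -0.65 (adjusted p = 0.0403). Clone 1 and HMC-1.1 were not separated at this depth, since the log2 difference of 0.55 had an interval from -0.013 to 1.104. The FPKM of PLAU in these 3 sublines rest on 9 to 49 counts. The transcript lengths implied by count, FPKM and library total lay between 641 and 2072 bases. The difference between the clones was not called with limma on log2(FPKM + 1) (-0.19, adjusted p = 0.242) or with glmTreat, an edgeR test against 1.5-fold (adjusted p = 0.64). The call of clone 2 against HMC-1.1 was also lost on log2(FPKM + 1), where the difference of 0.42 was under 1.5-fold.

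PLAT, the gene of tissue plasminogen activator, lies at chr8:42174718-42207709 on the minus strand. Its levels were 31.5, 32.4 and 30.6 FPKM in HMC-1.1, 29.4, 30.7 and 28.5 in HMC-1.2, and 28.6, 28.8 and 27.0 in clone 1. In clone 2 they were 49.3, 47.7 and 53.3 FPKM. Clone 2 was above all other libraries without overlap, whereas HMC-1.2 overlapped both HMC-1.1 and clone 1 in FPKM, though not in CPM. PLAT was 1.70-fold higher in clone 2 than in HMC-1.2 (log2 fold change 0.76, SE 0.0399, edgeR adjusted p = 4.72e-11) and 1.82-fold lower in clone 1 than in clone 2 (-0.86, SE 0.0397, edgeR adjusted p = 2.17e-11). Clone 2 was also 1.62-fold above HMC-1.1 (0.69, edgeR adjusted p = 4.87e-10). Without replicate 3 of clone 2 the log2 fold change against HMC-1.2 was 0.72. The differences from HMC-1.2 in clone 1 (-0.10, adjusted p = 0.0467) and HMC-1.1 (0.07, adjusted p = 0.166) were under 1.5-fold.

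The balance of the activators followed from these levels. PLAU made up 33.2% ± 1.36 (SD, n = 3) of the summed PLAU and PLAT FPKM in HMC-1.2. Its share was 0.911% ± 0.435 for HMC-1.1, 1.79% ± 0.714 for clone 1 and 1.41% ± 0.359 for clone 2. Tissue plasminogen activator therefore accounted for nearly all activator RNA outside HMC-1.2. The summed FPKM of both activators was 44.2 ± 1.26 in HMC-1.2 and 50.8 ± 3.08 in clone 2, but 31.8 ± 0.925 in HMC-1.1 and 28.6 ± 0.866 in clone 1. Relative to that sum, PLAUR stood at 1.00 ± 0.0902 in HMC-1.2, 0.997 ± 0.0651 in clone 1, 0.864 ± 0.0581 in HMC-1.1 and 0.533 ± 0.0565 in clone 2. These ratios of FPKM are descriptions and were not tested.

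**Figure D3:**
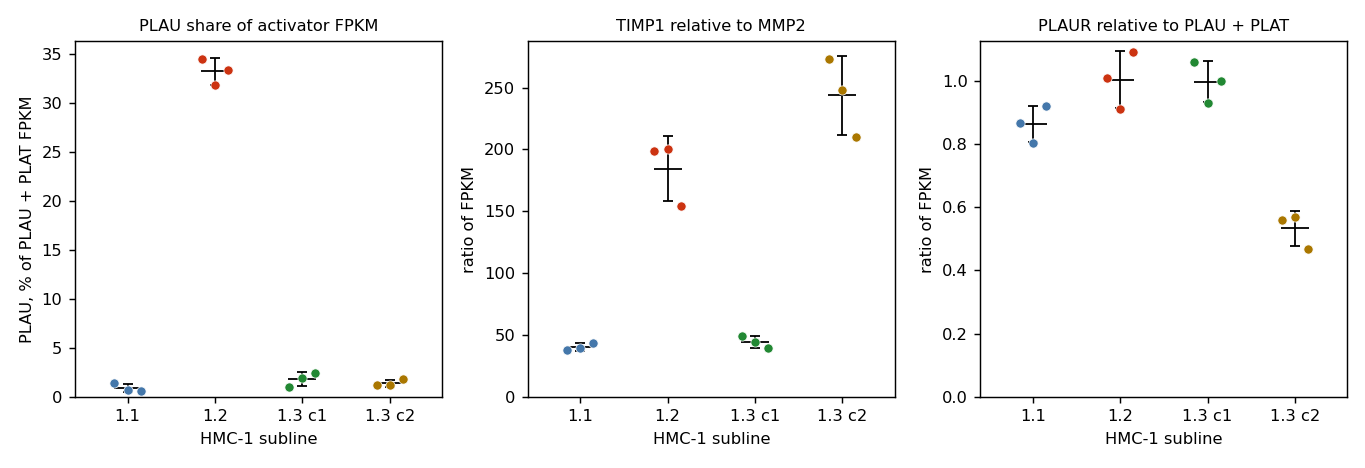
Ratios of FPKM are plotted by library for the 4 sublines, with bars for means and whiskers for SD (n = 3). PLAU takes between 31.8% and 34.5% of PLAU plus PLAT in HMC-1.2 and at most 2.46% elsewhere (left), TIMP1 stands at 154 to 273 times MMP2 in HMC-1.2 and clone 2 and at 37.8 to 49.0 times in HMC-1.1 and clone 1 (middle), and PLAUR relative to both activators is lowest in clone 2 (right).

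SERPINB2 encodes PAI-2, an inhibitor of urokinase and tissue plasminogen activator, at chr18:63871692-63903888. It had 0 counts in 11 libraries and 1 count in replicate 3 of clone 2. A count of 0 allows up to 3 counts, or 0.0765 to 0.103 CPM in those libraries, for counting error only. The inhibitor was therefore not detectable at this depth in HMC-1.1, HMC-1.2 or clone 1, and its single count came from the library that stood apart.

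MMP2, the gene of gelatinase A, lies at chr16:55389700-55506691 on the plus strand. It had 1084, 1055 and 1043 counts in HMC-1.1 and 855, 931 and 876 in clone 1. In HMC-1.2 it had 166, 161 and 120 counts, and in clone 2 it had 205, 241 and 252. HMC-1.1 and clone 1 thus formed a high pair and HMC-1.2 and clone 2 a low pair, with no overlap between the pairs. In CPM the ranges were 27.3 to 29.0 in HMC-1.1, 23.6 to 24.9 in clone 1, 5.83 to 6.18 in clone 2 and 4.14 to 5.32 in HMC-1.2, so that no neighboring groups overlapped on this scale, although HMC-1.2 and clone 2 did in FPKM.

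Against HMC-1.2, MMP2 was 6.03-fold higher in HMC-1.1 (log2 fold change 2.59, SE 0.0736, edgeR adjusted p = 1.29e-14) and 5.20-fold higher in clone 1 (2.38, SE 0.0743, edgeR adjusted p = 4.51e-14). In clone 2 it was 1.28-fold higher (0.35, SE 0.0856, edgeR adjusted p = 0.00254), which is under the fold of 1.5. The clones differed in the gelatinase directly, with clone 1 being 4.08-fold above clone 2 (2.03, SE 0.0694, edgeR adjusted p = 4.85e-13), and clone 2 was 4.72-fold below HMC-1.1 (-2.24, edgeR adjusted p = 1.89e-13). Clone 1 was 1.16-fold below HMC-1.1 (-0.21, edgeR adjusted p = 0.0196). The transcript length implied by count, FPKM and library total was 1690 bases in replicate 3 of HMC-1.2 and 2344 to 3024 bases in the other libraries. The FPKM of 2.43 in that replicate was the highest of HMC-1.2 although its count was the lowest.

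MMP9, the gene of gelatinase B, lies at chr20:46008908-46016561 and was near the detection limit. It had 7, 1 and 4 counts in HMC-1.1, 7, 4 and 6 in HMC-1.2, 5, 6 and 7 in clone 1, and 2, 1 and 1 in clone 2. All of these correspond to 0.10 FPKM or less. MMP2 was thus the gelatinase measured in these cells, with mean levels of 9.86 ± 0.634 FPKM (SD, n = 3) for HMC-1.1, 8.58 ± 0.625 for clone 1, 2.29 ± 0.20 for clone 2 and 2.03 ± 0.35 for HMC-1.2. MMP9 overlaps the antisense gene SLC12A5-AS1, which had 5 to 20 counts per library. Whether the counting used the strand is not given in the sources used here, so part of these few counts may belong to either gene.

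TIMP1 encodes a secreted inhibitor of most matrix metalloproteinases and lies at chrX:47582408-47586789 on the plus strand. It was the most abundant of the 9 members in every subline, within the top 1.15% to 1.64% of tested genes by mean FPKM. Its libraries had 400, 382 and 407 FPKM in HMC-1.1, 359, 368 and 374 in HMC-1.2, 390, 377 and 363 in clone 1, and 570, 567 and 522 in clone 2. Clone 2 was above all other libraries, and the other groups overlapped in CPM. The log2 fold change in clone 2 was 0.53 against HMC-1.2 (SE 0.0421, edgeR adjusted p = 1.18e-08) and 0.50 against HMC-1.1 (edgeR adjusted p = 7.96e-08), and clone 1 was at -0.57 against clone 2 (edgeR adjusted p = 8.68e-09). These folds of 1.45, 1.41 and 1.48 lie under the threshold of 1.5. Without replicate 3 of clone 2 the last difference was -0.62, and without replicate 1 of clone 1 it was -0.59, and both passed it, as did clone 2 against HMC-1.2 with limma on log2(FPKM + 1), at 0.59. TIMP1 lies within SYN1 on the opposite strand, and SYN1 had 23 to 61 counts per library.

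TIMP2 encodes an inhibitor that also takes part in the activation of pro-MMP2 at the cell surface, and lies at chr17:78852977-78925387 on the minus strand. Its counts were low, namely 62, 45 and 55 in HMC-1.2, 15, 18 and 16 in HMC-1.1, and 21, 30 and 23 in clone 1. In clone 2 they were 14, 15 and 81, the 81 being in the library with keratin transcripts. HMC-1.2 was above HMC-1.1 and clone 1 without overlap, and clone 2 overlapped every other group. TIMP2 was 3.88-fold lower in HMC-1.1 (log2 fold change -1.96, SE 0.461, edgeR adjusted p = 0.00176) and 2.502-fold lower in clone 1 (-1.32, SE 0.435, edgeR adjusted p = 0.0149) than in HMC-1.2. The call in clone 1 was lost without its replicate 1 (-1.23, adjusted p = 0.0509) and with glmTreat (adjusted p = 0.146), and on log2(FPKM + 1) both differences were under 1.5-fold (-0.42 in HMC-1.1 and -0.33 in clone 1).

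In clone 2 the TIMP2 result depended on the library that stood apart. With all libraries it was -0.90 against HMC-1.2 (SE 0.415, edgeR adjusted p = 0.0863). Without replicate 3 it was -2.09 (SE 0.291, edgeR adjusted p = 1.62e-05), which was called. Against HMC-1.1 the value turned from 1.06 to -0.14 (adjusted p = 0.0965 and 0.789), while it was called at 1.38 without replicate 1 and at 1.42 without replicate 2 of clone 2, and clone 1 against clone 2 turned from -0.43 to 0.77 (adjusted p = 0.458 and 0.056).

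TIMP3 encodes the inhibitor that binds to the extracellular matrix and also blocks ADAM17, and lies at chr22:32801705-32863041 on the plus strand within SYN3, which runs on the opposite strand and had at most 6 counts per library. The 3 libraries of clone 2 had 17.7, 18.9 and 18.2 FPKM. The other levels were 8.80, 9.04 and 8.16 FPKM in HMC-1.1, 8.43, 8.48 and 8.02 in clone 1, and 7.17, 6.96 and 6.74 in HMC-1.2. Clone 2 was thus above the other sublines without overlap, HMC-1.2 was the lowest, and HMC-1.1 and clone 1 overlapped. TIMP3 was 2.58-fold higher in clone 2 than in HMC-1.2 (log2 fold change 1.37, SE 0.0465, edgeR adjusted p = 1.38e-13), 2.13-fold higher than in HMC-1.1 (1.09, edgeR adjusted p = 8.37e-12), and 2.25-fold lower in clone 1 than in clone 2 (-1.17, SE 0.0453, edgeR adjusted p = 2.33e-12). Clone 1 and HMC-1.1 exceeded HMC-1.2 by 0.20 (adjusted p = 0.00192) and 0.28 (adjusted p = 0.000119), folds under 1.5.

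TIMP1 dominated the inhibitors in every subline. It made up 98.0% ± 0.0929 (SD, n = 3) of the summed TIMP1, TIMP2 and TIMP3 FPKM for HMC-1.2, 97.8% for HMC-1.1 and clone 1, and 96.8% ± 0.22 for clone 2. TIMP3 made up 3.2% ± 0.181 in clone 2 and 1.86% to 2.16% in the other sublines. The ratio of TIMP1 to MMP2 FPKM was 184 ± 26.3 in HMC-1.2 and 244 ± 31.7 in clone 2, against 40.3 ± 2.98 in HMC-1.1 and 44.1 ± 4.80 in clone 1. In FPKM the HMC-1.2 and clone 2 ranges did not overlap (154 to 200 and 210 to 273), and the ranges of HMC-1.1 and clone 1 did (37.8 to 43.6 and 39.4 to 49.0). The lowest HMC-1.2 ratio, 154, was in replicate 3, where the implied MMP2 length was 1690 bases. The separation of HMC-1.2 from clone 2 did not hold in CPM. There TIMP1 over MMP2 was 249.5 over 4.138 in replicate 3 of HMC-1.2 and 336.0 over 5.827 in replicate 3 of clone 2.

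Of 55 further genes of these pathways, listed by role, 26 passed the filter on low counts. Against HMC-1.2, 7 of these 26 were called in clone 1 (1 higher, 6 lower), 8 in clone 2 (2 higher, 6 lower) and 6 in HMC-1.1 (0 higher, 6 lower). These counts are 26.9%, 30.8% and 23.1% of the genes tested, beside 20.0%, 16.5% and 17.6% of all genes, and the median log2 fold changes were -0.13, -0.14 and -0.19. Leaving out 1 library each gave 7 to 9 called in clone 2 against HMC-1.2. In clone 1 against HMC-1.1, 0 of the 26 were called by edgeR, beside 1.01% of all genes, and 2 had an adjusted p under 0.05. Clone 2 against HMC-1.1 had 6 called (3 higher, 3 lower), which is 23.1%, beside 8.19% of all genes. Clone 1 against clone 2 had 7 (3 higher, 4 lower), which is 26.9%, beside 12.6% of all genes. Plasminogen itself (PLG) had at most 1 count in any library.

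**Figure D4:**
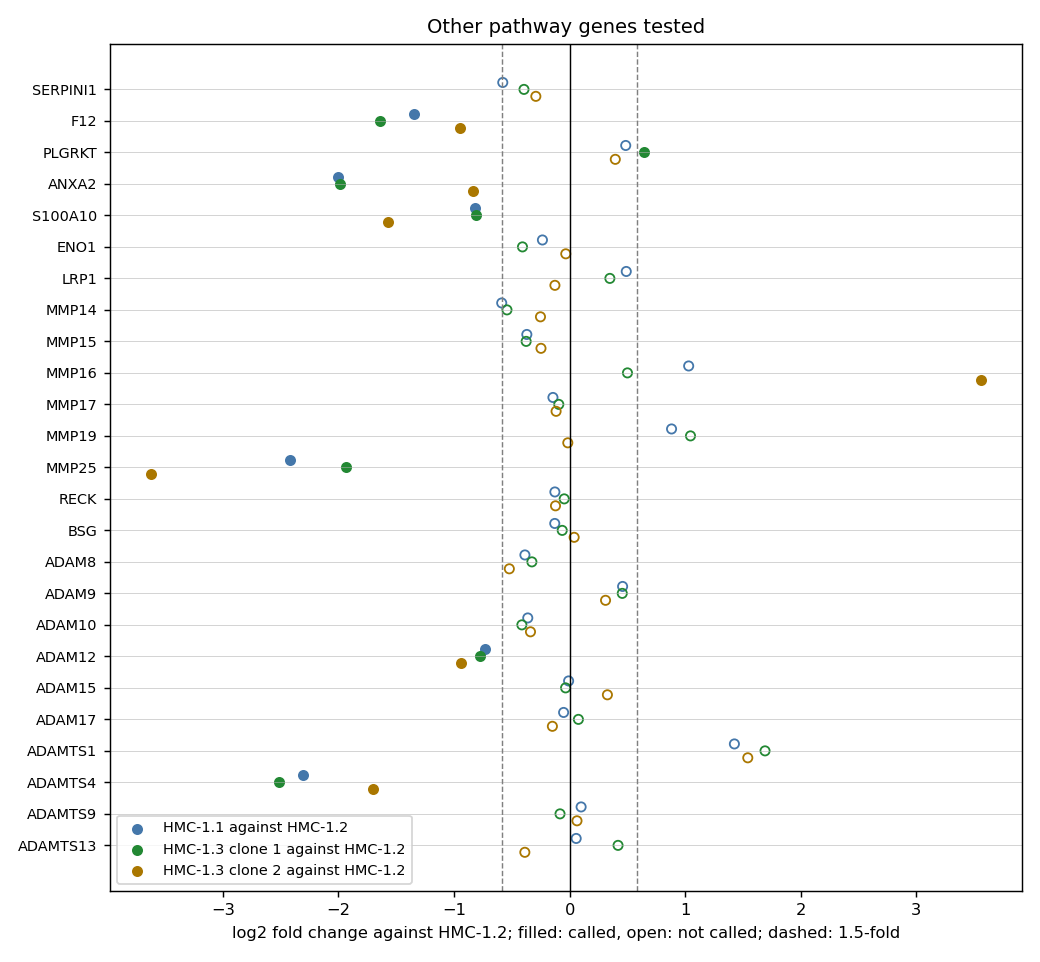
Log2 fold changes against HMC-1.2 are plotted on the x axis for the further pathway genes tested, 1 of them not shown, with 1 color per subline, filled where called and open where not. Dashed lines mark 1.5-fold. ANXA2, S100A10, F12, MMP25, ADAM12 and ADAMTS4 lie below 0 and are filled in all 3 comparisons, and MMP16 lies at 3.56 in clone 2.

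Among 7 plasminogen receptors and partners of the urokinase receptor, 5 were tested. ANXA2 and S100A10 encode the subunits of the annexin A2 heterotetramer, which binds plasminogen and tissue plasminogen activator at the cell surface, and both were lower than in HMC-1.2 in all 3 other sublines. ANXA2 had 36.1, 33.7 and 36.9 CPM in HMC-1.2, 9.45, 8.11 and 9.07 in HMC-1.1, 9.02, 9.24 and 8.67 in clone 1, and 16.3, 17.0 and 26.1 in clone 2. Clone 2 lay between HMC-1.2 and the others without overlap, with its highest value in the library that stood apart. The log2 fold changes of ANXA2 against HMC-1.2 were -2.0 in HMC-1.1 (edgeR adjusted p = 1.16e-09), -1.99 in clone 1 (edgeR adjusted p = 1.06e-09) and -0.84 in clone 2 (edgeR adjusted p = 2.03e-05). The last value was -1.09 without replicate 3 of clone 2, and its call was lost with glmTreat (adjusted p = 0.0677).

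S100A10 had 72.1, 75.3 and 74.9 CPM in HMC-1.2, 42.4, 39.1 and 44.2 in HMC-1.1, 42.9, 43.5 and 40.1 in clone 1, and 26.5, 23.6 and 24.8 in clone 2. Here clone 2 was the lowest, and HMC-1.1 and clone 1 overlapped. The log2 fold changes were -0.82 in HMC-1.1 (edgeR adjusted p = 4.32e-10), -0.81 in clone 1 (edgeR adjusted p = 4.14e-10) and -1.57 in clone 2 (edgeR adjusted p = 1.22e-13). The clones therefore differed in opposite directions for the subunits, with clone 1 at -1.15 for ANXA2 (edgeR adjusted p = 2.33e-06) and at 0.76 for S100A10 (edgeR adjusted p = 5.19e-09) relative to clone 2. Without replicate 3 of clone 2 the ANXA2 value was -0.90 (edgeR adjusted p = 6.51e-08). PLGRKT, the gene of a membrane receptor of plasminogen, was higher in clone 1 (0.65, edgeR adjusted p = 3.68e-07), a call lost with glmTreat (adjusted p = 0.407), and its values of 0.40 in clone 2 and 0.49 in HMC-1.1 were under 1.5-fold.

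Of 10 genes for plasminogen, the contact system and their inhibitors, 3 were tested. SERPINE2, the gene of protease nexin 1, was not tested and had 19 counts in replicate 3 of clone 2, the library that stood apart, and at most 2 in any other. F12, the gene of coagulation factor XII, was lower than in HMC-1.2 by edgeR in clone 1 (-1.65, adjusted p = 5.05e-05), HMC-1.1 (-1.35, adjusted p = 0.000315) and clone 2 (-0.95, adjusted p = 0.00485). The F12 call in clone 2 was lost with glmTreat (adjusted p = 0.21), with limma on log2(FPKM + 0.1) (adjusted p = 0.0888) and on log2(FPKM + 1), where -0.49 was under 1.5-fold.

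**Figure D5:**
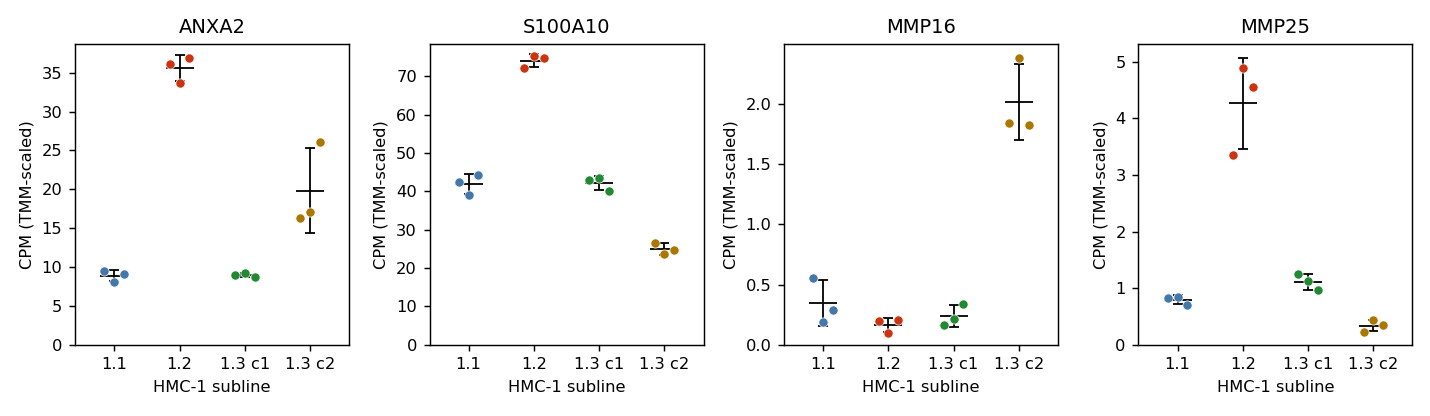
CPM, scaled by TMM library factors, is plotted on the y axis for 4 pathway genes in the 4 sublines, with points for libraries, bars for means and whiskers for SD (n = 3). ANXA2, S100A10 and MMP25 are highest in HMC-1.2, and MMP16 lies between 1.83 and 2.39 CPM in clone 2 and at or under 0.557 CPM elsewhere.

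Of 21 further matrix metalloproteinases, 6 were tested. MMP25, the gene of a GPI-anchored membrane-type metalloproteinase of leukocytes, had 120, 148 and 132 counts in HMC-1.2, 31, 31 and 27 in HMC-1.1, 45, 42 and 34 in clone 1, and 8, 17 and 15 in clone 2. The 4 groups did not overlap in CPM. Its log2 fold changes were -2.42 in HMC-1.1 (edgeR adjusted p = 3.91e-08), -1.93 in clone 1 (edgeR adjusted p = 3e-07) and -3.62 in clone 2 (edgeR adjusted p = 9.07e-10). MMP16, the gene of another membrane-type metalloproteinase, had 63, 93 and 79 counts in clone 2 and 3 to 21 in every other library, and its log2 fold change in clone 2 against HMC-1.2 was 3.56 (SE 0.383, edgeR adjusted p = 6.08e-07). MMP16 counts correspond to at most 0.21 FPKM, and its call is lost on log2(FPKM + 1), where its log2 difference is 0.21.

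Among 14 ADAM and ADAMTS proteases, 10 were tested and the same 2 were called in all 3 comparisons with HMC-1.2, which share its libraries. That is 20.0% of the 10, near the 20.0%, 16.5% and 17.6% of all genes in clone 1, clone 2 and HMC-1.1. ADAM12, the gene of a membrane-anchored disintegrin and metalloproteinase, was lower by 0.74 to 0.94 on the log2 scale, with 194 to 303 counts per library in the 3 other sublines and 362 to 438 in HMC-1.2. Its calls in clone 1 and HMC-1.1 were lost with glmTreat (adjusted p = 0.0587 and 0.154) and on log2(FPKM + 1), where the differences of -0.49 and -0.47 were under 1.5-fold. ADAMTS4, an aggrecanase gene, had only 2 to 9 counts in those sublines and 13 to 21 in HMC-1.2, and its calls are lost on both FPKM scales. Of the inhibitors TIMP4 and RECK and the inducer BSG, 2 were tested and none was called by edgeR in any comparison, with 0 to 1 of them at an adjusted p under 0.05.

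The 9 genes lie on 9 chromosomes. Medians over the tested genes within 1 Mb are given beside the members. Called members passed a fold threshold, while the median over all genes is near 0, so a smaller median is no result. Around PLAU, 35 genes had median log2 fold changes against HMC-1.2 of -0.14 in clone 1, -0.12 in HMC-1.1 and -0.03 in clone 2, where PLAU was at -5.01, -5.55 and -4.22. Around TIMP3, 6 genes had a median of 0.02 in clone 2 (range -0.18 to 0.33). Around PLAT, 18 genes had a median of 0.04 in clone 2 (-1.84 to 0.61) and in clone 1 (-6.74 to 1.2). Around PLAUR, 36 genes had medians of 0.27 in clone 1 and HMC-1.1 and 0.15 in clone 2, opposite in sign to PLAUR itself. The 11 genes around MMP2 had medians of 0.04 in clone 1 and 0.09 in HMC-1.1, but ranged up to 3.6 and 3.2.

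The genes most like each member over the 12 libraries were found by the root mean square difference of log2 CPM, centered on each gene, among 10886 genes whose mean reached 5 CPM. For PLAU they were ENPP3 (difference 0.368), which encodes CD203c, a surface marker of mast cells and basophils, P2RY8 (0.434) and PLEK (0.445), beside a spread of 2.12 for PLAU about its own mean. PLAUR was most like CYTH4 (0.061), TBC1D23 (0.068) and GMFG (0.081), but none of these was among the nearest 3 on log2(FPKM + 1). MMP2 was closest to HRC (0.217), RP11-169D4.2 (0.327) and SLC12A8 (0.367). PLAT was closest to TPGS2 (0.073), ATP5A1 (0.073) and ZCCHC2 (0.076), all of which lie on chromosome 18, whereas PLAT lies on chromosome 8. TIMP1 was closest to MLC1 (0.058), COPS4 (0.06) and IFT57 (0.065), and TIMP3 to DRD2 (0.125), HIST1H1C (0.155) and FADS3 (0.161). For PLAT, MMP2, TIMP1 and TIMP3, 2 of the 3 nearest were also among the nearest 3 on log2(FPKM + 1), and for PLAU 1 was. TIMP2, with a mean under 1 CPM, was not compared in this way.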

How the data were processed

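Polyadenylated RNA from 12 HMC-1 cultures (4 groups of 3, grouped by the sample labels) was analyzed. The 9 members and all gene lists were chosen with earlier results of these data known. Per gene, the authors deposited expected counts estimated by RSEM without normalization, of which 20.5% of those above 0 are not whole. The authors also deposited FPKM, which correct for library size and transcript length. The submitters' processing notes name Cutadapt 2.10, STAR 2.5.3, Picard, RSEM 1.3.0 and DESeq2, with hg38. The library kit was stranded, and the strand setting of the counting is not given in the sources used here.

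Counts were rounded to whole numbers and tested with edgeR 4.0.16 (R 4.3.3), by the quasi-likelihood test with TMM factors, filterByExpr and all 4 groups in 1 model (8 residual degrees of freedom). P-values were adjusted by Benjamini-Hochberg over 15944 genes, and calls needed a fold over 1.5 with an adjusted p under 0.05. Levels between genes were compared by FPKM only, and CPM are scaled by TMM factors. Totals were 29225900 to 43181402 counts per library, and bounds from counts cover counting error only. Named genes were the 9 members, every further pathway gene called against HMC-1.2 (at most 4 per role), and the 3 genes most like each member. Keratin and other genes high in replicate 3 of clone 2, SERPINE2 and PLG were named after their values had been seen. Gene positions came from Gencode 44 and promoters from RefSeq (GRCh38.p14). The script was tested on simulated data. Alternatives were DESeq2 1.42.0, upper quartile factors, no filter, only the compared groups, a replicate block, an added term marking 3 libraries whose labels say resent, glmTreat, limma 3.58.1 on log2(FPKM + 1) and log2(FPKM + 0.1), and leaving out each library. Reads and KIT genotypes were not checked here. One further pathway gene that was tested and is in the counts is not reported here.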

Additional observations from a re-analysis of the deposited data

Results flagged for a closer look

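Of the members, 4 were flagged because the clones of HMC-1.3 differed from each other in their difference from HMC-1.2, as tested by edgeR in the direct comparison of clone 1 with clone 2. The difference of the clones, clone 1 minus clone 2 on the log2 scale, was -0.79 for PLAU (adjusted p = 0.00649), -0.86 for PLAT (adjusted p = 2.17e-11), 2.03 for MMP2 (adjusted p = 4.85e-13) and -1.17 for TIMP3 (adjusted p = 2.33e-12). Without replicate 3 of clone 2 these were -0.65, -0.82, 2.00 and -1.18, each still called. No sample-level outlier test applied, since groups had 3 libraries.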

How the results depend on the processing

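The replicate numbers were checked for pairing. Deviations of same-numbered libraries from their group means correlated between -0.043 and 0.096 over 18 pairs, 0 of them over 0.1. Since these correlations were small, the numbers were not taken as pairs in the main fit. Even so, 8 of 12 libraries correlated best with their own number, and a replicate block was fitted as an alternative. With a replicate block, all-gene calls relative to HMC-1.2 were 3185 for clone 1, 2637 for clone 2 and 2799 for HMC-1.1, and 165, 1291 and 1994 in clone 1 against HMC-1.1, clone 2 against HMC-1.1 and clone 1 against clone 2. Among members, TIMP2 in clone 2 against HMC-1.2 gained a call under the replicate block (-1.04, adjusted p = 0.0389), which took the members called there from 4 to 5, as it did with no filter on low counts (-0.89). The cause was not tested.

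The number of members called stayed within 1 of the reported count in all 126 combinations of comparison and alternative. Calls of all genes were fewer with limma on log2(FPKM + 1) and with glmTreat, which tests against the fold threshold itself: relative to HMC-1.2 they were 1902 and 1932 for clone 1, 1453 and 1612 for clone 2 and 1514 and 1618 for HMC-1.1, where edgeR gave 3193, 2630 and 2803. The same tools gave 61 and 9 in clone 1 against HMC-1.1 (edgeR 161, DESeq2 87), 566 and 552 in clone 2 against HMC-1.1 (edgeR 1306) and 969 and 837 in clone 1 against clone 2 (edgeR 2013). Leaving out 1 library each gave 106 to 196 calls in clone 1 against HMC-1.1, the lowest without replicate 2 of clone 1. Further pathway genes called were 4 and 5 of 26 in clone 2 against HMC-1.2, 2 and 3 in clone 2 against HMC-1.1 and 2 and 4 in clone 1 against clone 2 with these tools, and 1 in clone 1 against HMC-1.1 with the term for resent libraries. Signs turned for values near 0. TIMP1 in clone 1 against HMC-1.2 was 0.0368 and 0.0369 with limma on the FPKM scales, and PLAUR in clone 2 against HMC-1.1 was 0.000789 with DESeq2 and 1.55e-05 without a filter. Leaving out each library, PLAUR ranged from -0.0138 to 0.0893 in clone 1 against HMC-1.1, from -0.0452 to 0.0581 in clone 2 against HMC-1.1 and from -0.014 to 0.101 in clone 1 against clone 2. TIMP2 ranged from -0.136 to 1.42 in clone 2 against HMC-1.1 and from -0.794 to 0.765 in clone 1 against clone 2, the turn being without replicate 3 of clone 2. Of the members' values, 1558 kept sign and call, 48 lost and 12 gained a call, and 17 changed sign, values of the named pathway genes included. Depth limits PLAU outside HMC-1.2 (9 to 49 counts), TIMP2 and MMP9.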
